A study of Mus musculus with 6 samples.

Results

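The mouse carboxylesterase genes were described in the liver of mice without Chga, which encodes chromogranin A, a prohormone stored in secretory granules, and of wild-type mice. Members were all probe sets annotated to a gene whose symbol begins with Ces and a digit, also where the annotation holds an older symbol. The rule found 12 of 22626 probe sets. Of these, 11 were annotated to a single gene each and stood for 9 of the 12393 genes so measured, and 1 was shared by Ces3a and Ces3b. The RefSeq table of assembly GRCm38.p6 lists 20 such genes, pseudogene included, so the other 9 had no probe set here: Ces1a, Ces1b, Ces1h, Ces2b, Ces2c, Ces2d-ps, Ces2f, Ces2h and Ces5a. All 12 probe sets passed the filter on dim values and were above the background reference on all 6 arrays. That reference is the 95th percentile of Bacillus control probe sets on the same array.

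The groups were 3 arrays of liver from the Chga knockout strain of Mahapatra and colleagues and 3 of wild-type mice of the same source, all males of 12 weeks. No treatment is named for either group. The genetic background, the time of day, whether the mice were fed and how the arrays were batched are not given in the labels, which also do not say whether animals were pooled. P-values therefore measure only the spread between these samples. Values are Affymetrix probe set intensities in arbitrary units, each array scaled by the authors to a common level, and changes are differences of log2(intensity + 16), knockout minus wild type, with the standard error (SE) of a limma fit across all 6 arrays. Whole liver was measured, so fewer cells of a type and less RNA per cell cannot be told apart.

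The targeted gene was dim. The Chga probe set read 61.5, 44.5 and 231 in knockout replicates 1, 2 and 3 and 167, 185 and 42.5 in the wild-type replicates. The groups overlapped, and 2 of 6 values were above the background reference, those of wild-type replicate 2 and of knockout replicate 3, which was the highest of all 6. The probe set was removed by the filter on dim values, so it does not check the group labels. Hepatocyte markers were above background on all arrays for 9 of 9 genes measured, and their summed intensity was 1000970 to 1125180 in knockout and 954205 to 1038570 in wild type.

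Carboxylesterases are serine hydrolases that split esters, amides and thioesters of drugs and of lipids. Most liver members are held in the lumen of the endoplasmic reticulum, where some hydrolyse stored triacylglycerol and supply lipid for very low density lipoprotein. The genes arose by tandem duplication and share much sequence, so a probe set may also bind transcripts of other members, and which member each measured is uncertain. Ces1d is also called triacylglycerol hydrolase. The family was chosen on the change of a Ces1d probe set between the same 2 groups. The knockout and wild-type values of the members are therefore a description, and no test is drawn from them.

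All 20 genes lie on mouse chromosome 8 in 2 clusters. The first runs from Ces1a to Ces5a and holds 9 genes, and the second runs from Ces2a to Ces4a and holds 11. Ces1d spans chr8:93166072-93197804 on GRCm38.p6, between Ces1c and Ces1e. The files name no build, and these positions come from RefSeq alone.

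The RefSeq promoter table (GRCm38.p6) held an entry for 15 of the 20 genes, each of 300 bases, with 250 before and 50 after the start. Ces1d, Ces1f, Ces2b, Ces2d-ps and Ces3a had no entry, so the promoter of Ces1d was not examined. Words of 8 letters were counted on both strands to show what the members share in sequence besides their names. For each subfamily the word found in the most of its promoters was taken, and among ties the one rarest over all genes. The contrast with all genes was therefore set by this choice and is no test of enrichment. In the Ces1 subfamily the word TTATGTAA, the letters of the D-box element bound by PAR leucine zipper factors, was found in 5 of 6 promoters. It occurred in 1.11% of all 27025 genes with an entry. The windows are printed to show this word, in capitals, with its flanks, 5′ to 3′ on the strand of each gene.
Ces1a: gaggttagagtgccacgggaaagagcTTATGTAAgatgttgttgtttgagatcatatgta
Ces1b: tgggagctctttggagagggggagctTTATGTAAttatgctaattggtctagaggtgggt
Ces1c: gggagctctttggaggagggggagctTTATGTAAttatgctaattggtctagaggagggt
Ces1e: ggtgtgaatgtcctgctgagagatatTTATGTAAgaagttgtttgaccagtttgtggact
Ces1g: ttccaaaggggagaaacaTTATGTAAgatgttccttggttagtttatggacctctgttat
The windows lie at chr8:93048357-93048416 for Ces1a, chr8:93079991-93080050 for Ces1b, chr8:93131344-93131403 for Ces1c, chr8:93229667-93229726 for Ces1e, chr8:93337400-93337459 for Ces1g, all on the minus strand. Ces1h, the sixth entry, did not hold the word in this window. The word began 84 and 94 bases before the start in Ces1b and Ces1c, 81 in Ces1e, and 198 and 232 in Ces1a and Ces1g. For Ces1b and Ces1e the start of the promoter entry lies inside the RefSeq gene span. Those spans end at chr8:93080017 and chr8:93229631, and for Ces1b that end falls within the window printed. These promoters share ancestry and are not independent occurrences.

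In the Ces2 subfamily the word ACTTTGCC, taken by the same rule, was found in 4 of 6 promoters, against 1.08% of all genes with an entry. It overlaps by all but its first letter the word CTTTGCCC, which was in the same number of Ces2 promoters and in 1.9% of all. The windows are shown because 3 of these 4 genes are members with array values.
Ces2a: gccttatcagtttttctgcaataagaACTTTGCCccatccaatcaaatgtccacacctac
Ces2e: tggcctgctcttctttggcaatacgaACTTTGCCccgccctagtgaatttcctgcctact
Ces2f: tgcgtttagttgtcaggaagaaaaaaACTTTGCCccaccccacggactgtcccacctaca
Ces2g: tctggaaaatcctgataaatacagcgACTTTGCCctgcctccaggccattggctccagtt
They lie at chr8:104733907-104733966 for Ces2a, chr8:104926154-104926213 for Ces2e, chr8:104947238-104947297 for Ces2f, chr8:104961575-104961634 for Ces2g, on the plus strand. The word began 70, 80, 92 and 117 bases before the start in Ces2a, Ces2e, Ces2f and Ces2g. For Ces2g the start of the promoter entry lies inside the RefSeq gene span, which begins at chr8:104961596, and so does the word. A match is a description of letters and not a binding site.

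Ces1d was measured by 3 probe sets, and they did not give the same picture. Probe set 1435371_x_at read 40346, 48854 and 14104 in knockout replicates 1, 2 and 3 and 5043, 5956 and 5329 in the wild-type replicates. All knockout arrays were above all wild-type arrays, and replicate 3 stood apart from the other knockout arrays. Its log2 change was 2.48 ± 0.36 (SE, n = 3 per group), a 5.57-fold difference on that scale. The arithmetic means were 5443 ± 467 (SD) in wild type and 34435 ± 18113 in knockout, a ratio of 6.33. Replicates 1, 2 and 3 stood 7.41, 8.98 and 2.59 times above the wild-type mean. The highest knockout value was 3.46 times the lowest, against 1.18 times among the wild-type arrays.

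The other Ces1d probe sets were also higher in knockout on average, by a much smaller amount. Probe set 1435370_a_at read 48153, 46105 and 44293 in knockout and 34744, 39548 and 41042 in wild type, so that the groups did not overlap but lay close together. Its log2 change was 0.27 ± 0.09. Probe set 1449081_at read 44818, 46820 and 41887 in knockout and 34435, 43105 and 37031 in wild type, with overlapping groups and a change of 0.23 ± 0.10. It is the only one of the 3 for which the platform annotation names a transcript, the RefSeq messenger of Ces1d. In the naming of the array's maker, the suffix _x_at marks probe sets with probes that may bind transcripts of other genes, and _a_at those that bind several transcripts of 1 gene. What binds 1435371_x_at in knockout liver was not tested.

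The size given to Ces1d thus rests on the probe set taken. The mean log2 value of the 3 probe sets, an alternative added after seeing the data, changed by 0.99 ± 0.16, and that of the 2 other than 1435371_x_at by 0.25 ± 0.09. Leaving out knockout replicate 3 moved the change of 1435371_x_at to 3.03 ± 0.13, and leaving out replicate 2 moved it to 2.13 ± 0.34.

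**Figure D1:**
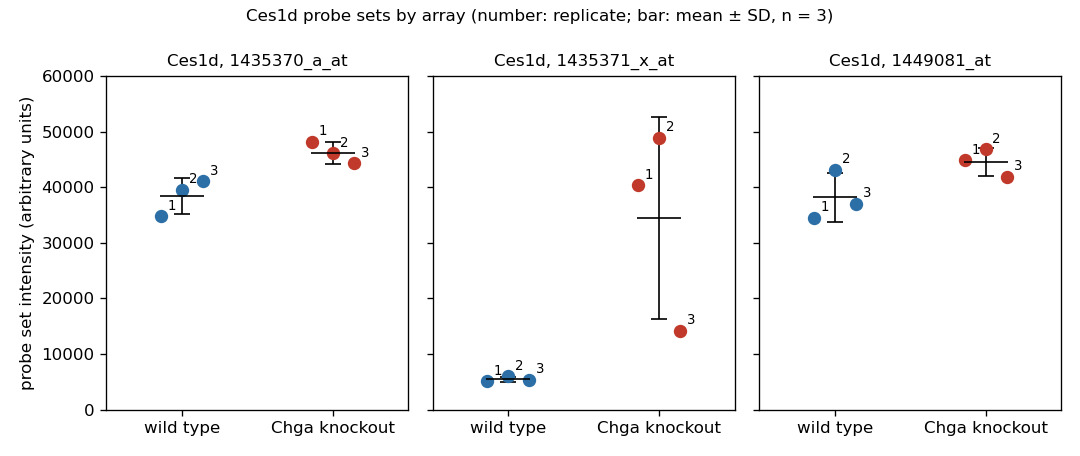
Intensity (arbitrary units, linear axis from 0) of the 3 Ces1d probe sets, with 1 point per array, the replicate number beside it, and bars for the mean ± SD (n = 3). The knockout arrays of 1435371_x_at spread from 14104 to 48854 over wild-type arrays near 5443, while the other probe sets lie between 34435 and 48153 in both groups.

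Past an adjusted p of 0.05 (limma, Benjamini-Hochberg over 13576 probe sets), 1 of the 12 carboxylesterase probe sets was called, 1435371_x_at, where 0.376% of all probe sets tested were called and 0.192% were called higher. Since that probe set led to the choice of the family, nothing is read from this count. The count was 0 without wild-type replicate 1, without wild-type replicate 3 or without the intensity trend of the variance prior. By size, 1435371_x_at ranked 5 among all probe sets tested.

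Over the 12 probe sets the median change was 0.18, against -0.018 over all probe sets tested, and 9 of 12 were higher in knockout, against 46.8% of all. The median of the absolute changes was 0.19, against 0.16 over all. Groups did not overlap for 3 of 12, all of them higher, against 15.6% of all probe sets in either direction and 7.44% upward, and 2 of the 3 were Ces1d probe sets. Without 1435371_x_at, on which the family was chosen, 2 of 11 (18.2%) did not overlap, which is near the background, 8 of 11 were higher and the median was 0.16. The share of members higher in knockout depends on the arrays: 7 of 12 were higher without knockout replicate 3, with a median of 0.050.

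**Figure D2:**
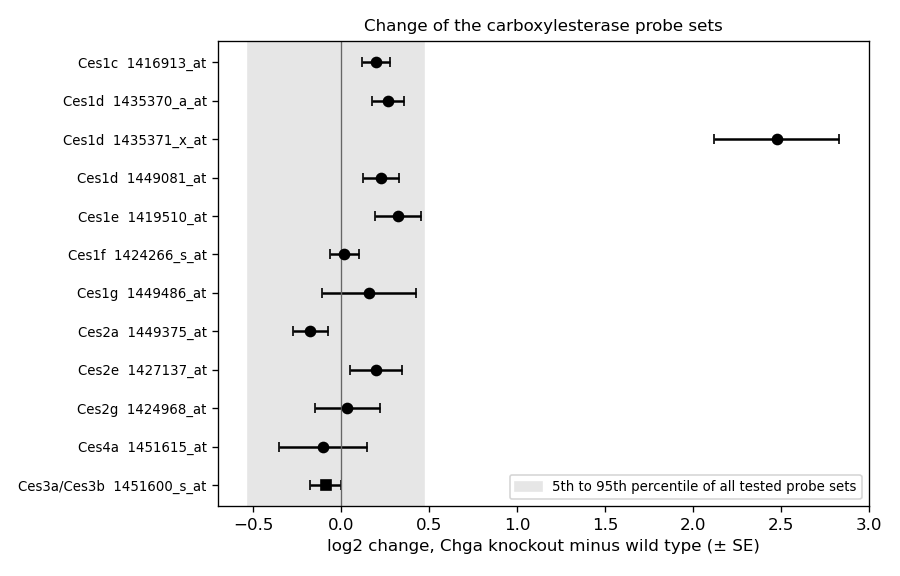
Change in log2 intensity, knockout minus wild type, of the 12 carboxylesterase probe sets (points for single-gene probe sets, a square for the shared one, bars ± SE, n = 3 per group). The band holds the 5th to 95th percentile of all probe sets tested, -0.53 to 0.47, and 1435371_x_at at 2.48 is the only member outside it.

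Among the neighbours of Ces1d in the first cluster, Ces1c encodes the carboxylesterase secreted into mouse plasma. Its probe set read 131460, 153261 and 136967 in knockout and 121120, 122353 and 123012 in wild type. The groups did not overlap, and the wild-type arrays lay within 1.02-fold of one another. The log2 change was 0.20 ± 0.08, and it was 0.057 ± 0.059 after quantile normalization.

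Ces1e encodes egasyn, which holds beta-glucuronidase in the endoplasmic reticulum. It read 16767, 18929 and 21896 in knockout and 17615, 13248 and 15120 in wild type, with knockout replicate 1 inside the wild-type range, a change of 0.33 ± 0.13. Gusb, the gene of that partner, was no member and stood at 0.24 ± 0.14 by its brightest probe set and at -0.24 by the other, and it did not pass (limma, adjusted p = 0.604).

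Ces1f, a further hydrolase of neutral lipids, read 61143, 63918 and 58299 in knockout and 56599, 61402 and 63223 in wild type. The groups overlapped, at a change of 0.017 ± 0.083, with a 95% interval from -0.17 to 0.20. The Ces1f probe set, 1424266_s_at, has the same _s_at suffix as 1451600_s_at, which is shared by Ces3a and Ces3b. Which transcripts it bound was not tested.

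Ces1g, a liver carboxylesterase of lipid metabolism, read 5435, 5085 and 11553 in knockout and 7329, 6066 and 5176 in wild type. Knockout replicate 3 stood 1.87 times above the wild-type mean, while replicates 1 and 2 stood at 0.88 and 0.82 of it. The change of 0.16 ± 0.27 became -0.22 without that array. The same array was the lowest of the knockout group for each of the 3 Ces1d probe sets. All 7 probe sets of the Ces1 subfamily had a change above 0, except that Ces1f turned to -0.052 after quantile normalization, -0.015 without knockout replicate 2 and -0.029 without wild-type replicate 1, and Ces1g turned as given.

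In the second cluster, Ces2a, a hydrolase of acylglycerols, read 42662, 45088 and 52341 in knockout and 56304, 49469 and 52076 in wild type. Its groups overlapped through knockout replicate 3, at a change of -0.18 ± 0.10. Ces2e read 9932, 9064 and 12929 in knockout and 9719, 9959 and 7971 in wild type, with only replicate 3 above the wild-type range, a change of 0.20 ± 0.15.

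Ces2g read 1870, 1569 and 2421 in knockout and 1820, 1703 and 2129 in wild type, at 0.036 ± 0.19, and turned to -0.13 without knockout replicate 3, -0.033 without wild-type replicate 2 and -0.017 with array weights. Ces4a read 720, 624 and 552 in knockout and 569, 746 and 729 in wild type, at -0.10 ± 0.25. The probe set shared by Ces3a and Ces3b, both hydrolases of the liver endoplasmic reticulum, read 89358, 100676 and 96440 in knockout and 107650, 92081 and 105323 in wild type, at -0.089 ± 0.088. Groups overlapped for each of these 5 probe sets of the second cluster.

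Knockout replicate 3 held the highest value of all 6 arrays for 4 of 12 probe sets, Ces1e, Ces1g, Ces2e and Ces2g, and the lowest for Ces4a. Knockout replicate 2 was also highest for 4, namely Ces1c, Ces1f and the Ces1d probe sets 1435371_x_at and 1449081_at. Wild-type replicate 1 was lowest for 5, which included all 3 Ces1d probe sets. The members thus differed in which knockout array was high, and no array was high for all.

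**Figure D3:**
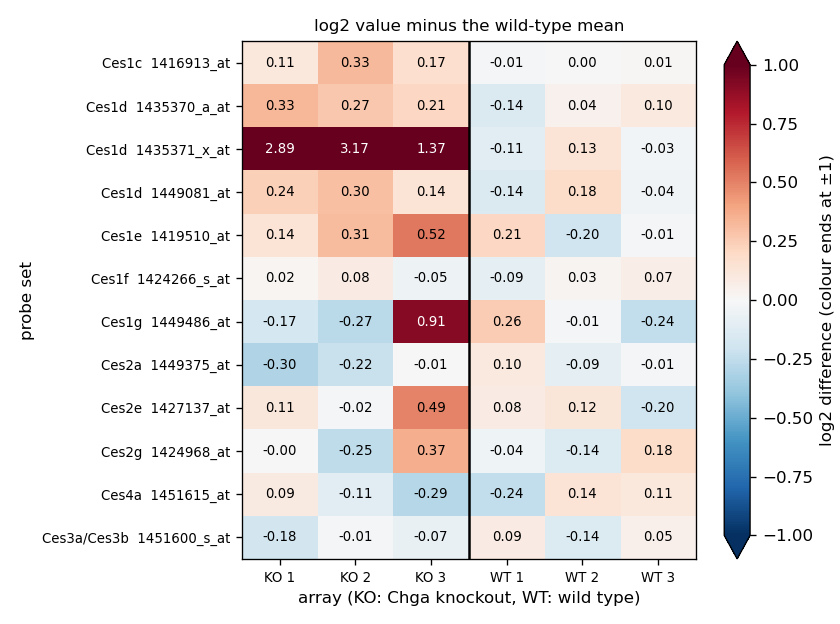
Log2 value of each carboxylesterase probe set on each array minus its wild-type mean (rows are probe sets, columns arrays, and the colour scale ends at 1 in either direction). Knockout replicate 3 is lower than the other knockout arrays for 1435371_x_at, at 1.37 against 2.89 and 3.17, and higher for Ces1g, at 0.91 against -0.17 and -0.27.

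The probe sets of other genes most like 1435371_x_at across the 6 arrays, by Pearson's r of log2 values, were those of Ube2f (0.996), Odc1 (0.993), Ywhab (0.986), Sec62 (0.985) and Lnx1 (0.985). The lowest r belonged to Leprot (-0.998), Timm17a (-0.993), Zbtb44 (-0.991), Slc8b1 (-0.988) and Fbxo21 (-0.985). The points are 6 arrays in 2 groups, and the likeness includes the difference between the groups. These values are the extremes of a search over all tested single-gene probe sets outside the family. Their size was therefore set by that choice, and nothing is read from it. Ube2f, an E2 enzyme of the NEDD8 pathway, read 3689, 3896 and 3049 in knockout and 2483, 2463 and 2536 in wild type, with replicate 3 the lowest knockout array as for 1435371_x_at. Its change of 0.50 was far smaller than that of the Ces1d probe set.

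Genes next to the carboxylesterase clusters were taken as the 5 nearest measured genes on each side, and none lay between members. Of the 10 around the first cluster, 1 passed the test, where 0.376% of all probe sets did. Mt2, a metallothionein that binds zinc and copper, read 2953, 11124 and 7621 in knockout and 25525, 34555 and 33639 in wild type, with no overlap. It fell by 2.29 on the log2 scale (limma, adjusted p = 0.0306), and it did not pass without wild-type replicate 1, 2 or 3 (adjusted p from 0.0808 to 0.114) or without the intensity trend (0.260). Its neighbour Mt1, another metallothionein, stood at -1.74 ± 0.50 and did not pass (adjusted p = 0.225). At an unadjusted p under 0.05, 5 of these 10 genes were counted, Fto, Nudt21, Mt2, Mt1 and Herpud1, against 9.97% of all probe sets.

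Of the 10 genes around the second cluster 0 passed with limma and 0 had an unadjusted p under 0.05, with changes from -0.16 for Cbfb to 0.98 ± 0.77 for Cklf. The genes beside Ces1d on the chromosome, Ces1c and Ces1e, lay at 0.20 and 0.33, well below 1435371_x_at but about the size of the other Ces1d probe sets. Nudt21, the first gene measured past the cluster, lay at -0.31 ± 0.13.

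**Figure D4:**
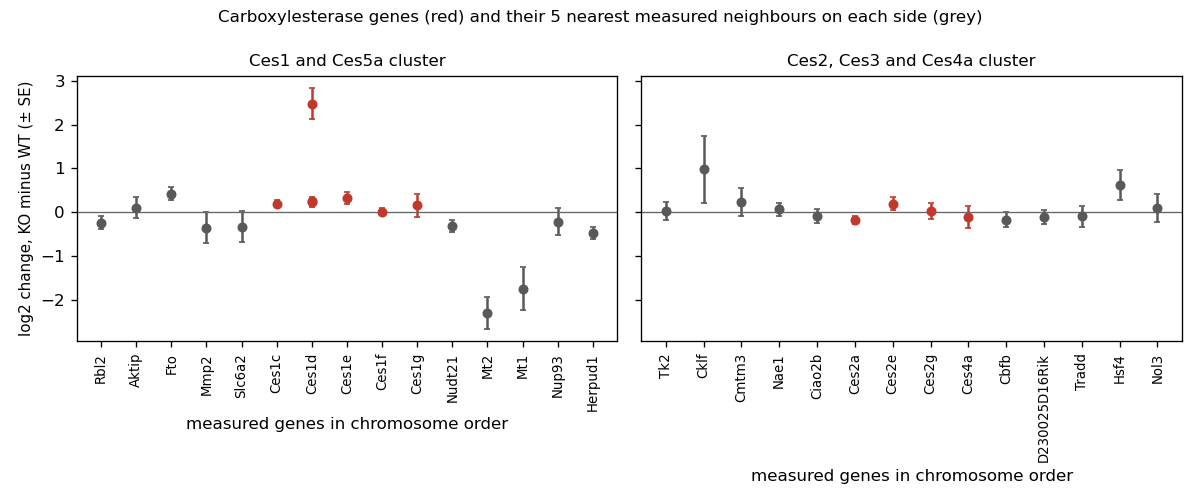
Change in log2 intensity (± SE, n = 3 per group) of the single-gene carboxylesterase probe sets and of their 5 nearest measured neighbours on each side, in chromosome order and not to scale. In the first cluster 1435371_x_at of Ces1d at 2.48 is the highest point and Mt2 at -2.29 the lowest.

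Genes outside the family, chosen for related functions or as known regulators and partners, were described from 5 lists. In all, 0 of 49 measured genes passed with limma at an adjusted p of 0.05, and 5 had an unadjusted p under 0.05, where 9.97% of all probe sets did. Changes of the brightest probe sets ran from -1.01 to 0.86 with a median of 0.072, and groups did not overlap for 9 of the 49, against 15.6% of all. The count was 1 without knockout replicate 3, when Ppara passed. Of 15 genes with further kept probe sets, 8 had one of the opposite sign, so the counts of direction in each list hold for the brightest probe set.

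Of 14 measured neutral lipid hydrolases and cofactors, 7 were higher and 7 lower, and 0 passed. G0s2, which inhibits adipose triglyceride lipase, read 16791, 12389 and 16396 in knockout and 11502, 9874 and 6427 in wild type, with no overlap, a change of 0.74 ± 0.20 (limma, adjusted p = 0.181). Pnpla2, the lipase it inhibits, stood at -0.29 ± 0.14 (limma, adjusted p = 0.512). Lpl, lipoprotein lipase, read 1080, 608 and 1661 in knockout and 2305, 2642 and 1513 in wild type. Its groups overlapped, at a change of -1.01 ± 0.33 (limma, adjusted p = 0.312). Lipa, the lysosomal acid lipase, stood at 0.19 ± 0.10 by its brightest probe set and at 0.31 and 0.63 by the others (adjusted p = 0.577 for the first). Aadac, an arylacetamide deacetylase of the same compartment as Ces1d, was at 0.091 ± 0.089.

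Other ester and epoxide hydrolases gave 13 of 14 higher, with a median of 0.093, and 0 passed. The largest change was in Ephx1, the microsomal epoxide hydrolase, at 0.30 ± 0.14 (limma, adjusted p = 0.514), followed by Lypla1, an acyl-protein thioesterase, at 0.24 ± 0.10 (adjusted p = 0.473). Cmbl, a hydrolase of prodrug esters, was at 0.16 ± 0.08 (adjusted p = 0.580), and Siae, a sialic acid esterase, was the 1 lower gene at -0.19 ± 0.15, with its other probe sets at 0.020 and -0.015. The tally of directions depends on the probe set taken, since Bche, butyrylcholinesterase, stood at 0.049 ± 0.20 by its brightest probe set and at -0.20 by the other. Pon1, the paraoxonase carried on high density lipoprotein, read 95281, 97167 and 92008 in knockout and 86563, 89695 and 87271 in wild type, a small difference without overlap at 0.11 ± 0.07.

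In lipid droplet and lipoprotein assembly 7 of 9 genes were higher and 0 passed. Sar1b, a GTPase of export vesicles, was at 0.24 ± 0.09 (limma, adjusted p = 0.374), Plin2, which coats lipid droplets, at -0.27 ± 0.14 (adjusted p = 0.578), Dgat2, which makes triacylglycerol, at -0.12 ± 0.10 (0.0049 by its other probe set) and Mttp, the lipid transfer protein that loads Apob, at 0.11 ± 0.10. Apob itself was at 0.087 ± 0.090.

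Of the 9 receptors and factors known to regulate carboxylesterase genes, 5 were higher and 0 passed. Ppara, the receptor of fatty acids, read 22052, 27163 and 31889 in knockout and 36473, 39689 and 42027 in wild type. The groups did not overlap, with a change of -0.56 ± 0.13 (limma, adjusted p = 0.113) that became -0.68 ± 0.12 (adjusted p = 0.0437) without knockout replicate 3. Nr1i2, the pregnane X receptor, was at -0.28 ± 0.15 (adjusted p = 0.591), with its other probe set at 0.05. Nr1i3, the constitutive androstane receptor, was at 0.10 ± 0.11, Rxra, their partner, at -0.15 ± 0.12 with its other probe set at 0.096, and Nr1h3, an oxysterol receptor, at 0.16 ± 0.16. Of the receptors that return proteins to the endoplasmic reticulum, Kdelr1 was at -0.064 ± 0.13 and Kdelr2 at -0.038 ± 0.17, and with Gusb 0 of 3 passed.

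**Figure D5:**
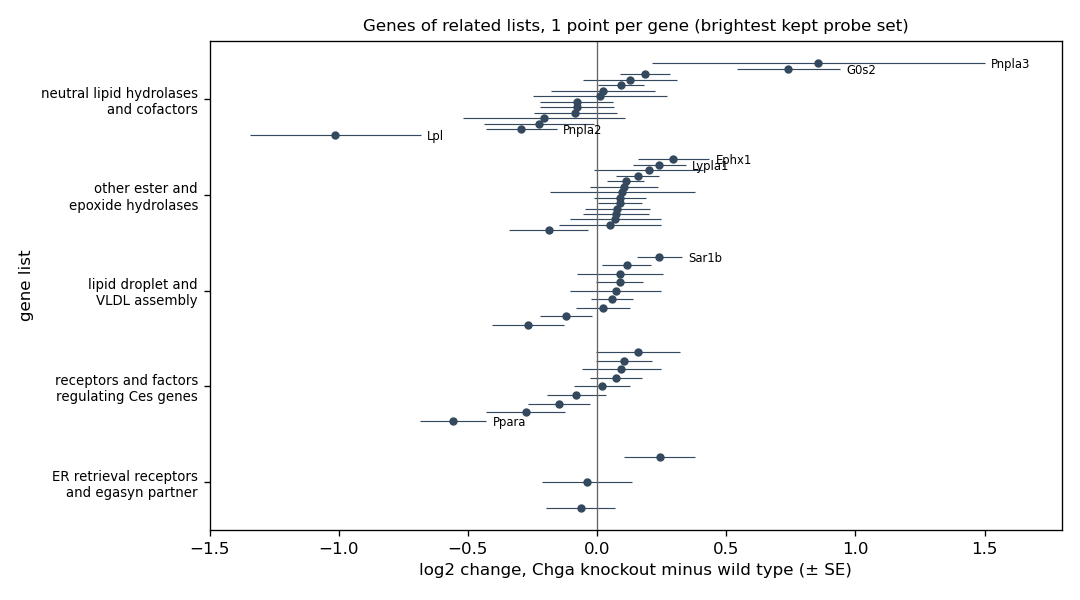
Change in log2 intensity (± SE, n = 3 per group) of 49 genes in 5 lists, with 1 point per gene. The 5 genes with an unadjusted p under 0.05 are Lpl, G0s2, Lypla1, Sar1b and Ppara, among others named in the plot, and 0 of the 49 passed after adjustment.

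Markers of other tissues that express carboxylesterases were read beside the members. Adipose markers were above background on all arrays for 1 of 4 genes measured, and their sums were 867 to 2359 in knockout and 832 to 1885 in wild type. Kidney markers were above it on all arrays for 1 of 5 (sums 1206 to 1638 and 1434 to 2041), with Slc12a1 below it on every array. Intestinal markers were above it for 1 of 4, Fabp2, which made most of the sums (7945 to 10318 and 7076 to 9007), with Vil1 below it. Pancreatic markers were above it for 2 of 5, with sums lower in knockout, at 5206 to 8687, than in wild type, at 9784 to 10425, while Cpa1, Ctrb1 and Ins2 were below background on every array. Most of these pancreatic sums came from the single gene Cela1. It read 7968, 6765 and 4663 in knockout and 9489, 9132 and 9650 in wild type (limma, adjusted p = 0.245). Kupffer cell and macrophage markers were above it for 6 of 8 (15810 to 26444 and 20066 to 26569), endothelial markers for 6 of 7 (8220 to 9982 and 9363 to 9620), stellate cell markers for 5 of 7 (19532 to 25093 and 22662 to 31004) and cholangiocyte markers for 0 of 4 (602 to 658 and 666 to 909). Of the genes in these lists that the filter on dim values kept, 0 passed with limma. Genes that this filter removed were not tested. They include every cholangiocyte marker measured, every adipose marker measured but Fabp4 and every intestinal marker measured but Fabp2. The part of these tissues and cells in the values of the members was not tested.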

How the data were processed

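GCOS 1.2, software of the array's maker, made the values, per the submitters' processing notes. Per the labels' protocols, RNA was DNase-treated and made into biotinylated cRNA. The deposited values are linear intensities with 1 column per array; their means, trimmed by 2% on either side, lay between 2501.32 and 2501.42, so the authors had scaled the arrays to a common level by a rule not given in the sources used here. Of 22690 probe sets, 64 controls were left out, and symbols were updated through RefSeq identifiers. The upper 60% by mean log2 value, 13576 probe sets, were tested as log2 of the intensity plus 16. The test was limma 3.58.1 under R 4.3.3 (lmFit, eBayes with intensity trend, no covariate) with Benjamini-Hochberg adjustment at 0.05. A gene of a list was represented by its brightest kept probe set. A log2 difference on this scale understates the change of dim probe sets. The fit was tested on simulated data. For a single value, the lowest p an exact permutation test can give with 3 arrays a group is 0.1, so none is printed. The number of arrays limits the precision.

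The members and lists were chosen with earlier results of these data known. Named were every member, Chga, list members past the threshold and otherwise up to 4 of smallest p with others named for their role, called neighbours, and the 5 highest and 5 lowest correlations to 1435371_x_at. Other settings tried were quantile normalization, centring on the median, a pseudocount of 1, of 64 or 16-fold larger, keeping all probe sets or the upper 40%, array weights, no trend, the replicate block, leaving out each array and, for the lists, the probe set of smallest p. Probe set averages of Ces1d were added after seeing the data.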

Additional observations from a re-analysis of the deposited data

How the results depend on the processing

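The 51 probe sets past the threshold became 85 with a pseudocount 16 times as large, 82 with array weights, 7 without the intensity trend and 27 with the replicate block, and 21 to 57 with 1 array left out (21 without wild-type replicate 3 and 23 without wild-type replicate 1). Of the carboxylesterase probe sets, 1 passed under the other settings, 0 without the intensity trend, and 0 to 1 with 1 array left out. The count for the related lists was 0 under every setting run, the probe set of smallest p included, except among the fits with 1 array left out, where it was 0 to 1. Same-numbered arrays of the groups did not deviate together (correlations from -0.065 to -0.059, and 0 of 3 numbers correlated best with their own). The labels do not say whether the number pairs samples, and these correlations cannot decide it. The changes of the 3 Ces1d probe sets kept their direction under the 16 alternatives, 2.13 to 3.03 for 1435371_x_at, 0.20 to 0.32 for 1435370_a_at and 0.15 to 0.32 for 1449081_at. The settings of the filter, the trend and the replicate block cannot move a change, so the direction was fixed under them. The family was also chosen on this contrast, and no support is drawn from the direction. The cause of the lost calls was not tested, beyond the smaller number of arrays in the fits that leave one out.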
